A study of Mus musculus with 19 samples.

Results

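The transcripts described are those of 9 genes linked to atrial muscle: Myl7, Myl4, Myl1, Sln, Bmp10, Hamp, Sbk2, Pam and Gpr22. They were chosen by symbol, as genes whose levels had been seen to vary together from heart to heart, so their spread and their correlations are given as descriptions without a test. Each of the 9 was read by 1 probe set that names that gene alone, and they were 9 of the 22180 genes that the arrays could name.

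The hearts came from 3 groups of mice. There were 7 hearts of wild-type C57Bl6J mice at ZT0 (WT ZT0), 7 of wild-type C57Bl6J mice at ZT12 (WT ZT12) and 5 of mice lacking Rev-erb alpha at ZT12 (KO ZT12), for which the labels give no strain; no age is given for any group. ZT is zeitgeber time, counted in hours from lights on, and Rev-erb alpha is a nuclear receptor of the circadian clock, encoded by Nr1d1. Every heart was taken out and perfused through the aorta (the Langendorff preparation) for 20 min, left without flow for 20 min and reperfused for 20 min before freezing, so no group stands for a heart without ischemia. RNA of each heart went on 1 Affymetrix array, and levels are log2 values of RMA, a method that corrects background and normalizes between arrays. A difference of 1 is a doubling, and levels of different genes are not compared because probes differ in brightness.

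Atrial and ventricular muscle share most of the contractile machinery but use different light chains of myosin, and the atria also secrete peptides from granules. MYL7 and MYL4 are the regulatory and the essential light chain of atrial myosin. Sarcolipin, the product of Sln, is a small membrane protein of atrial muscle that inhibits the calcium pump SERCA. BMP10 is a ligand of the TGF-beta family that in the adult mouse is made mainly in the right atrium and acts on endothelium through the receptor ALK1. Hepcidin, encoded by Hamp, is the iron hormone known mainly from liver, and its transcript is also found in heart. PAM amidates peptides and is a main membrane protein of atrial secretory granules. SBK2 is a protein kinase, MYL1 is an essential light chain known from fast skeletal muscle and GPR22 is an orphan receptor of brain and heart.

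RefSeq promoter sequences of GRCm38.p6 were found for 8 of the 9 genes, and the 250 bases before the start of 4 genes are printed on the gene's own strand, from 5′ to 3′. They are the light chain genes Myl7 (chr11:5898783-5899032, minus strand) and Myl4 (chr11:104550413-104550662, plus strand), which rose and fell together over hearts, and Bmp10 (chr6:87428744-87428993, plus strand) and Hamp (chr7:30944030-30944279, minus strand), which formed another pair. Capitals mark matches to the motifs listed after them.
Myl7: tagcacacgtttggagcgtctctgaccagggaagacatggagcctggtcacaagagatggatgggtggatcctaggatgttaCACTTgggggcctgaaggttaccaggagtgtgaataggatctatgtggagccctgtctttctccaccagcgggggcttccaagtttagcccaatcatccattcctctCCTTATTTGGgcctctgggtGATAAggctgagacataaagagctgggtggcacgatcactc
Myl4: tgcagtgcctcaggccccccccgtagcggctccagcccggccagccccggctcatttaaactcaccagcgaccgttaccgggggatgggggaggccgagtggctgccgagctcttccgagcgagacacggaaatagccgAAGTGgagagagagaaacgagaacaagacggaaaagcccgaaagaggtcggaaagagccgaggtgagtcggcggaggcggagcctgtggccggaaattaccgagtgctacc
Bmp10: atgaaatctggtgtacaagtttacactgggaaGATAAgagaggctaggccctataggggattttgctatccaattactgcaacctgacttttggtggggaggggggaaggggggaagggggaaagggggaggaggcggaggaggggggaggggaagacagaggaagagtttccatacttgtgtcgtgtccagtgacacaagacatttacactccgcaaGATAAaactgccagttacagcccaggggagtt
Hamp: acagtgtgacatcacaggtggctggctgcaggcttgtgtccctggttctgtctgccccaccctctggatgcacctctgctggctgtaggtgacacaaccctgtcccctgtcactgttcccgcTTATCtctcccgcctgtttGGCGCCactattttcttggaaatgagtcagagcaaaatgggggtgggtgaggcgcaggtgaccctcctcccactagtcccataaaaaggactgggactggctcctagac
The motifs were searched on both strands. GATAA, a core of sites for GATA factors, lay 41 to 37 bases before the start of Myl7, 218 to 214 and 32 to 28 bases before that of Bmp10, and, on the other strand, 128 to 124 bases before that of Hamp. It occurred in 22.6% of 32851 promoters of the same length. AAGTG, a core for NKX2-5, lay in Myl7 (168 to 164 bases before the start, other strand) and Myl4 (111 to 107) and in 40.7% of promoters. A CArG box, the site type of serum response factor, lay 61 to 52 bases before the start of Myl7 and in 1.47% of promoters. GGCGCC, a core of BMP-responsive elements, lay in Hamp at 109 to 104 bases before the start and in 9.59% of promoters. TATAAA (12.4% of promoters) was met in Gpr22 and Myl1, whereas AGGTGT for T-box factors (11.8%), AGGTCA for nuclear receptors such as REV-ERB (14.0%) and the MEF2 motif (2.92%) were in none of the 8 windows. None of the matches in the printed sequences overlapped another. A match is a string of letters, not a site shown to be bound.

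The members did not vary in the same measure (plot of values by heart). Within groups, Bmp10 had an SD of 2.83, the largest of all 22180 genes. Sln had an SD of 1.97, Hamp 1.87 and Myl7 1.64, with 1, 2 and 5 genes above them. Myl4 followed at 0.79 (27 genes above), Sbk2 at 0.48 (167), Myl1 at 0.38 (587) and Pam at 0.34 (1005). Gpr22, at 0.20, was exceeded by 9164 genes, and the median over all genes was 0.18. In 8 of the 9 genes the hearts of a group thus differed more than those of a typical gene, and Gpr22 was close to the typical spread.

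**Figure D1:**
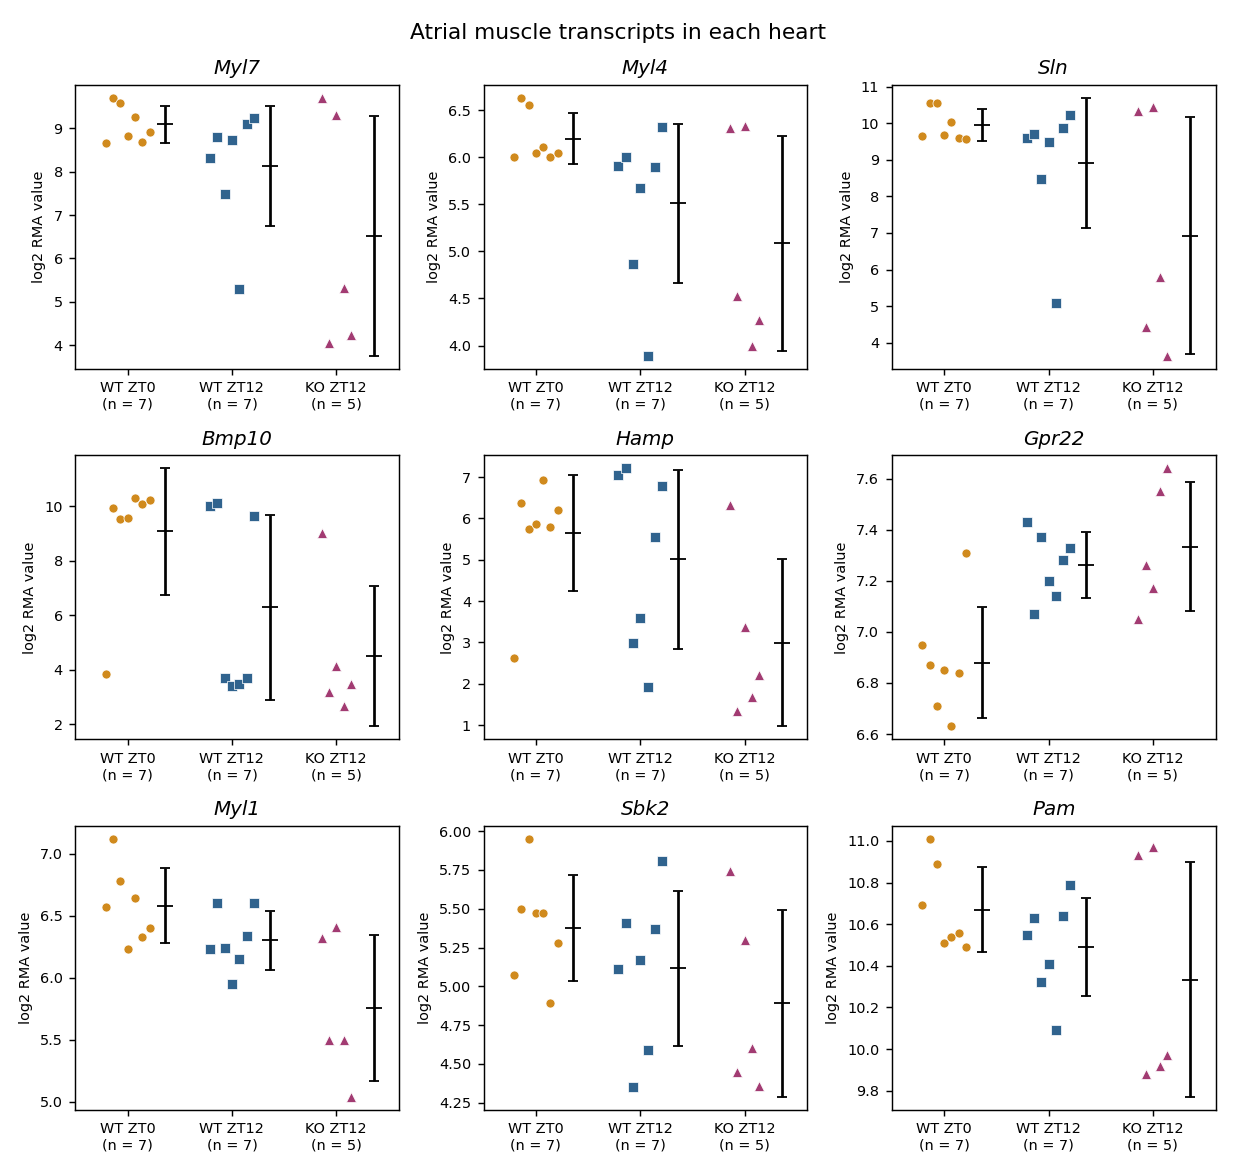
Log2 RMA level of the 9 transcripts in every heart, by group (circles WT ZT0, squares WT ZT12, triangles KO ZT12), with the group mean and SD as a bar; each panel has its own scale. Bmp10 has no heart between 4.15 and 9.01, and Myl7 has none between 5.32 and 7.49.

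The atrial light chains and sarcolipin separated 4 hearts from the other 15. Myl7 was at 8.65, 8.92 and 9.70 (lowest, median, highest) in WT ZT0 and at 5.29, 8.73 and 9.23 in WT ZT12. In the KO ZT12 hearts 1 to 5 it was at 9.70, 4.05, 9.30, 5.32 and 4.24. The hearts at or below 5.32 were WT ZT12 replicate 5 and KO ZT12 replicates 2, 4 and 5, and the next heart up, WT ZT12 replicate 3, was at 7.49. KO ZT12 replicates 1 and 3 lay at the level of the highest wild-type hearts, so the groups overlapped.

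Sln divided the hearts in the same way and spanned a 121-fold range of RMA values. Its lowest, median and highest levels were 9.56, 9.69 and 10.56 in WT ZT0 and 5.09, 9.59 and 10.23 in WT ZT12. In KO ZT12 hearts 1 to 5 it was at 10.32, 4.43, 10.44, 5.80 and 3.64. The gap ran from 5.80 to 8.48, with the same 4 hearts below it. Myl4 was at 6.0, 6.04 and 6.63 in WT ZT0, and at 3.89, 5.90 and 6.32 in WT ZT12. In the KO ZT12 hearts it was at 6.31, 4.53, 6.33, 3.99 and 4.27. Its widest gap, between 4.87 and 5.67, put 5 hearts on the low side, the same 4 and WT ZT12 replicate 3. That heart was also the lowest of the 15 others in Myl7 and Sln.

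Myl1 was less divided. It was at 6.23, 6.57 and 7.12 in WT ZT0 and at 5.95, 6.24 and 6.60 in WT ZT12. KO ZT12 hearts 1 to 5 were at 6.32, 5.50, 6.41, 5.50 and 5.04, and the 3 at or below 5.50 were the knockout hearts low in Myl7. WT ZT12 replicate 5, also low in Myl7, was at 6.15 and inside the wild-type range. Myl1 therefore set the 3 low knockout hearts apart but not the low wild-type heart.

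Bmp10 and Hamp divided the hearts at another place (plot of deviations from the mean). Bmp10 had 10 hearts from 9.01 to 10.30 and 9 from 2.66 to 4.15, with none between, a 29.0-fold step. The high hearts were 6 of 7 in WT ZT0, 3 of 7 in WT ZT12 and 1 of 5 in KO ZT12. In WT ZT0 the exception was replicate 1, at 3.86 against a lowest value of 9.54 in the other 6. In WT ZT12 replicates 1, 2 and 7 were high (9.63 to 10.14) and replicates 3 to 6 low (3.68, 3.42, 3.47 and 3.70). KO ZT12 hearts 1 to 5 were at 9.01, 3.20, 4.15, 2.66 and 3.47. The low values lay near the medians of whole arrays, 3.25 to 3.32, and no call of detection was used, so a fold against these hearts is that of RMA values only.

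Hamp was at 2.61, 5.87 and 6.92 in WT ZT0 and at 1.93, 5.55 and 7.21 in WT ZT12. KO ZT12 hearts 1 to 5 were at 6.33, 1.35, 3.36, 1.68 and 2.21. Its widest gap, from 3.59 to 5.55, had 11 hearts above and 8 below, and 18 of the 19 hearts fell on the same side as for Bmp10. The exception was WT ZT12 replicate 6, low in Bmp10 (3.70) but at 5.55 in Hamp. Hamp2, a near copy of Hamp beside it in the genome, had a mean of 1.46 and a correlation of 0.15 with Bmp10 over the hearts. Some hearts were low in this pair and not in the light chains. WT ZT0 replicate 1 (Myl7 8.65, Sln 9.66), WT ZT12 replicates 4 and 6 (Myl7 8.73 and 9.10) and KO ZT12 replicate 3 (Myl7 9.30, Sln 10.44) all had Bmp10 at or below 4.15. No heart showed the reverse: the 4 hearts low in Myl7 were all low in Bmp10.

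**Figure D2:**
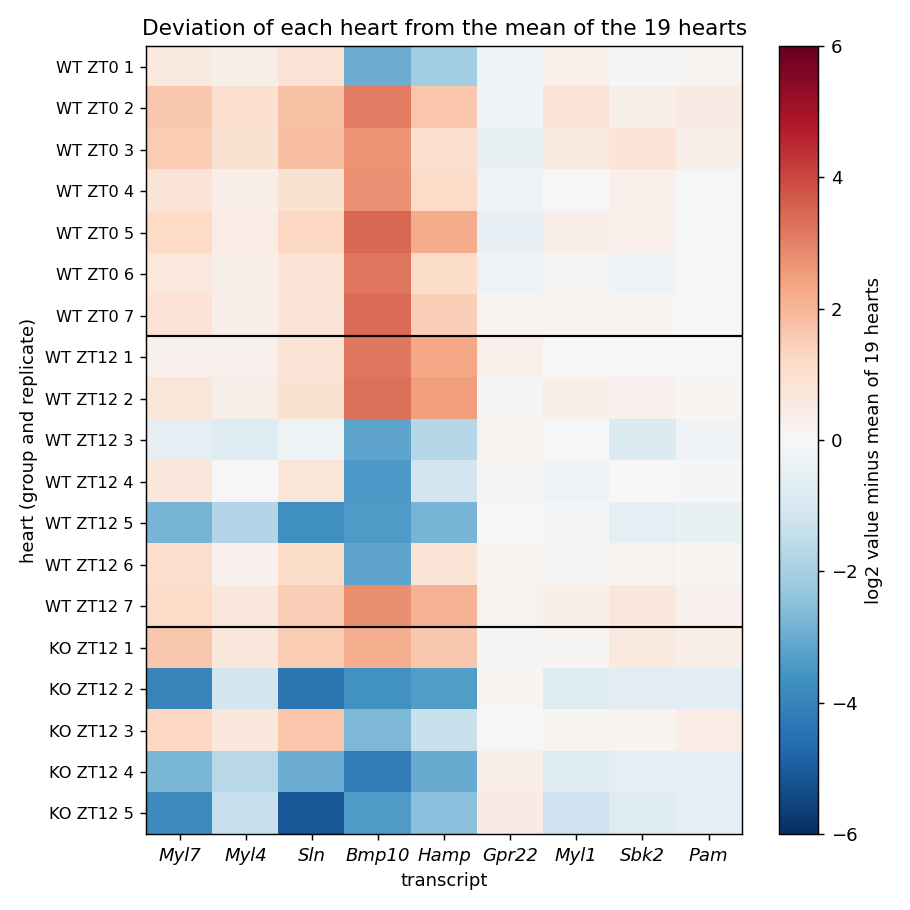
Deviation of each heart (rows, by group and replicate) from the mean of the 19 hearts for each transcript (columns), in log2 units; red is above and blue below the mean. The 4 hearts lowest in Myl7 (WT ZT12 5, KO ZT12 2, 4 and 5) are blue in all columns except Gpr22; 5 more hearts are blue in Bmp10.

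Pam and Sbk2 followed the light chains over a narrower range. Pam, the granule enzyme, was at 10.49, 10.56 and 11.01 in WT ZT0 and at 10.09, 10.55 and 10.79 in WT ZT12. KO ZT12 hearts 1 to 5 were at 10.93, 9.88, 10.97, 9.92 and 9.97. The 4 hearts low in Myl7 were the 4 lowest in Pam (10.09 and below, against 10.32 and above), although the whole range of Pam was only 2.19-fold. Sbk2 was at 4.89, 5.47 and 5.95 in WT ZT0, at 4.35, 5.17 and 5.81 in WT ZT12, and at 5.74, 4.45, 5.30, 4.60 and 4.36 in KO ZT12 hearts 1 to 5. Its 5 lowest hearts were the same 5 as for Myl4.

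Gpr22 went against the label it shares with the other 8. It was at 6.63, 6.85 and 7.31 in WT ZT0, at 7.07, 7.28 and 7.43 in WT ZT12 and at 7.05, 7.26, 7.17, 7.55 and 7.64 in KO ZT12 hearts 1 to 5. The highest levels were in KO ZT12 replicates 4 and 5, which were among the lowest in Myl7 and Sln. WT ZT12 replicate 5 and KO ZT12 replicate 2, also low in Myl7, were at 7.14 and 7.26, inside the WT ZT12 range of Gpr22. In these data Gpr22 was a transcript of narrow range, and no heart low in Myl7 had the lowest Gpr22 of its group.

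Correlations between genes over hearts were taken as a description, since they were among the values that chose the members. All points share 19 arrays, and a few hearts set much of each value. Over the 36 pairs of members Pearson's r had a median of 0.77, from -0.69 to 0.99. The 28 pairs without Gpr22 were all positive (0.57 to 0.99, median 0.81), and the 8 pairs with Gpr22 were all negative (-0.69 to -0.44). Myl7 and Sln gave 0.99, Myl7 and Myl4 0.94, and Myl4 and Sln 0.93. Pam had 0.92 with Myl7 and 0.93 with Myl4, and Bmp10 had 0.91 with Hamp. After each gene was centred on its group means the median over all pairs was 0.70. Taken in single groups it was 0.70 in WT ZT12 but 0.40 in WT ZT0, where 26 of the 36 pairs were positive and Bmp10 with Pam had -0.09. The median r of the members was thus lower in WT ZT0. Myl7 spanned a 2.06-fold range there, against 15.4-fold in WT ZT12, where replicate 5 was at 5.29. The part of this narrower range in the lower median was not tested, and KO ZT12 was not taken alone.

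**Figure D3:**
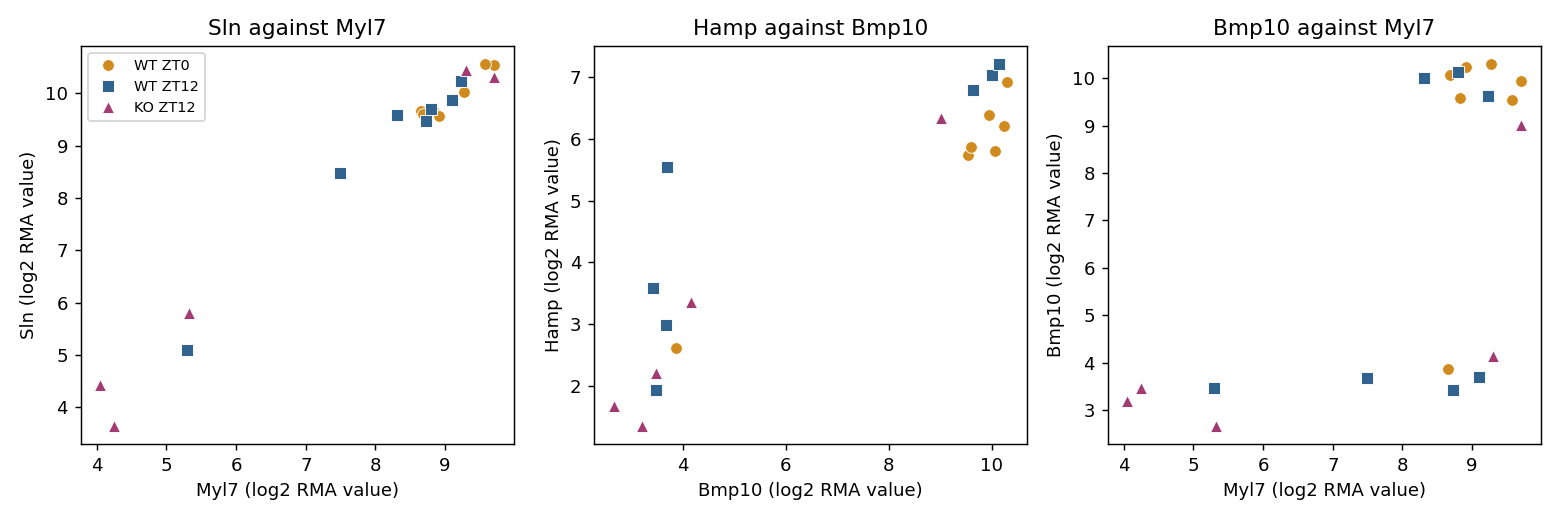
Each heart by its log2 RMA levels of Myl7 and Sln (left), Bmp10 and Hamp (middle) and Myl7 and Bmp10 (right), with symbols for the 3 groups. Sln rises with Myl7 along 1 line, whereas hearts with Myl7 at or above 7.49 lie either above 9.01 or at or below 4.15 in Bmp10.

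Because Bmp10 fell into separate clusters, its pooled correlations were also taken within each cluster, which narrows the range of Bmp10 itself. Over 19 hearts Bmp10 and Hamp had r of 0.62 to 0.79 with Myl7, Myl4 and Sln. Within the 10 hearts high in Bmp10 these 6 correlations were -0.52 to -0.15, and within the 9 low hearts 0.64 to 0.79. Bmp10 with Hamp fell to 0.35 within the high hearts and was 0.52 within the low ones. Pairs among Myl7, Myl4 and Sln were at 0.89 to 0.96 within the high hearts, at 0.90 to 0.99 within the low ones, at 0.94 to 0.97 in WT ZT0 and at 0.97 to 0.99 in WT ZT12. Without the 4 hearts lowest in these genes they were still 0.91 to 0.96, while the 6 correlations of Bmp10 or Hamp with them were 0.35 to 0.51 and the median over all 36 pairs dropped to 0.47. Pam and Sbk2 went with the light chains and sarcolipin (0.82 to 0.93 with Myl7, Myl4 and Sln over 19 hearts), whereas Bmp10 and Hamp formed a pair less tied to them. The negative pairs of Gpr22 did not hold within each group. They ranged from -0.51 to -0.10 in WT ZT0 and from -0.08 to 0.34 in WT ZT12.

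**Figure D4:**
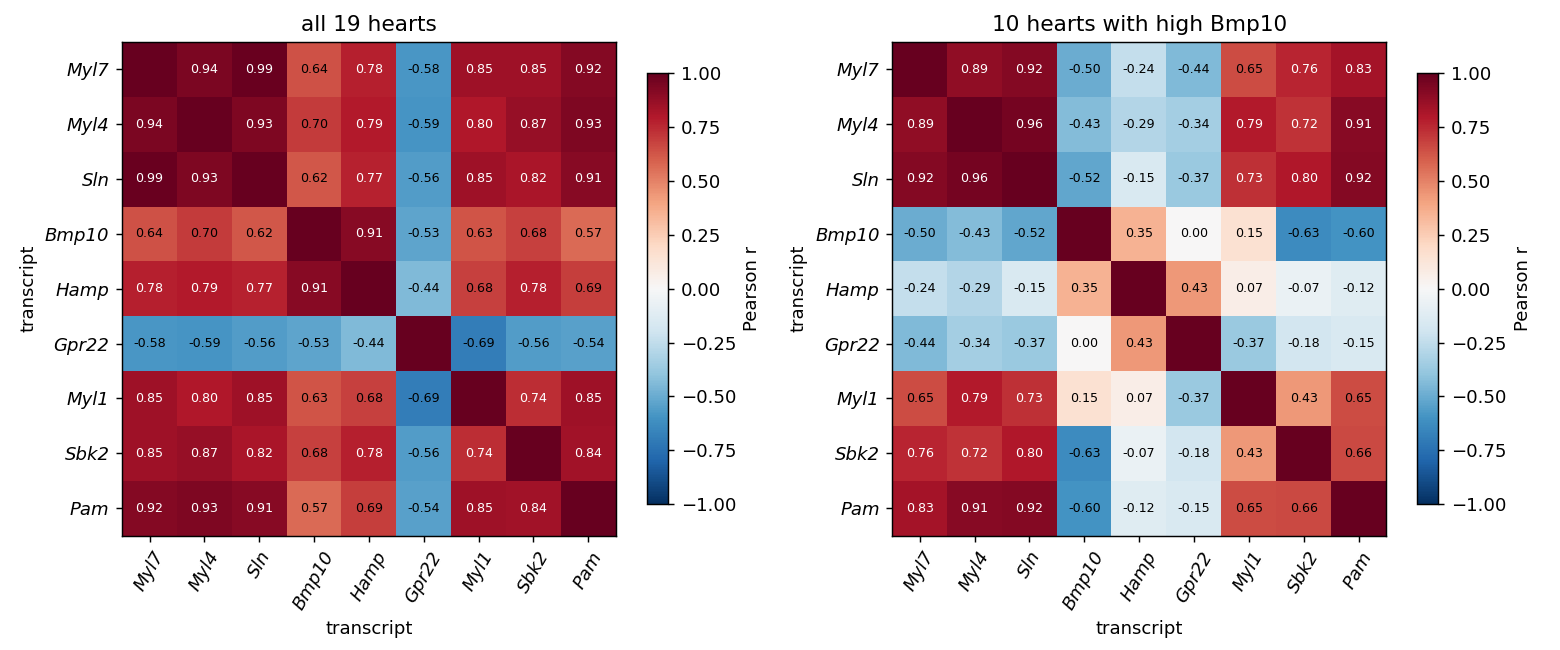
Pearson's r between the levels of each pair of the 9 transcripts over all 19 hearts (left) and over the 10 hearts high in Bmp10 (right). Myl7, Myl4 and Sln keep r of 0.89 to 0.96 with each other in the right panel, whereas their r with Bmp10 and Hamp is -0.52 to -0.15 there.

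Across the groups, 8 of the 9 members had lower means at ZT12 than at ZT0 in wild types, lower means in the knockout than in wild types at ZT12, and lower means in the knockout at ZT12 than in wild types at ZT0. Most of these differences did not pass the test across all genes. Limma, a linear model fitted on all 22180 genes with a mean per group, called a gene at an adjusted p (Benjamini-Hochberg) under 0.05. The 3 comparisons share groups and are not independent. Nor are the members, which were chosen as varying together over these hearts, so a count of members is not a count of separate results.

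Between wild-type hearts at ZT12 and ZT0, which asks how time of day bears on the heart after ischemia and reperfusion, none of the 9 members was called. Limma called 1.13% of all genes there. An unadjusted p under 0.05 was found for 2 of the 9 members and for 11.5% of all genes. The log2 difference was -0.95 for Myl7 (SE 0.77, adjusted p = 0.691), -0.69 for Myl4 (SE 0.37, adjusted p = 0.495) and -1.03 for Sln (SE 0.92, adjusted p = 0.732). Bmp10 had a difference of -2.79 with an SE of 1.32 (adjusted p = 0.428), and Hamp one of -0.64 (adjusted p = 0.839). Means of Bmp10 were 9.08 ± 2.32 (SD, n = 7) and 6.29 ± 3.40 (SD, n = 7), so its SD within either group was of the order of the difference. Gpr22 was nearest to the threshold, at 0.38 (SE 0.10, adjusted p = 0.0823). It was called with dim probe sets (mean under the array median) left out, with a variance trend in limma, by robust regression and with array weights (adjusted p 0.0199 to 0.038), and without WT ZT0 replicate 7 (adjusted p = 0.0169), the WT ZT0 heart with the highest Gpr22. The median over the 9 members was -0.64, and over all genes -0.0035.

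Between knockout and wild-type hearts at ZT12, groups that differ in genotype at a fixed time, none of the members was called either, against 0.73% of all genes. The labels give no strain for the knockouts, so a difference of strain cannot be told apart from that of genotype. An unadjusted p under 0.05 was found for 2 of the 9 members and for 10.6% of all genes. Myl7 differed by -1.61 (SE 0.84, adjusted p = 0.522), Sln by -2.0 (SE 1.01, adjusted p = 0.504), Bmp10 by -1.79 (SE 1.45, adjusted p = 0.719) and Hamp by -2.03 (SE 0.96, adjusted p = 0.463). Myl1 differed by -0.55 (SE 0.20, adjusted p = 0.278) and Gpr22 by 0.07 (adjusted p = 0.88). Myl7 means were 8.14 ± 1.38 (SD, n = 7) and 6.52 ± 2.76 (SD, n = 5), and the 5 knockout hearts were 2 at 9.30 and 9.70 and 3 at or below 5.32. Robust regression, which gives less weight to values far from their group, called Myl7, Myl4 and Sln lower (differences of -3.12, -1.08 and -3.61, adjusted p = 0.000666, 0.0189 and 0.000225). That setting also called more of all genes than the main fit. The main fit called none of these 3, so the calls depend on the setting. Hearts stood apart in both groups: 2 of the 5 knockout hearts were at wild-type level, and WT ZT12 replicate 5 was at 5.29 in Myl7. The weights given to single hearts were not examined. The median over the members was -0.55, and over all genes -0.0031.

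Between knockout hearts at ZT12 and wild-type hearts at ZT0, groups that differ in genotype and time of day together, 2 of the 9 members were called, against 1.34% of all genes. Myl1 fell, from 6.58 ± 0.30 (SD, n = 7) to 5.75 ± 0.59 (SD, n = 5), by 0.83 on the log2 scale (SE 0.20, adjusted p = 0.0394), and Gpr22 rose, from 6.88 ± 0.22 (SD, n = 7) to 7.33 ± 0.25 (SD, n = 5), or 1.37-fold (SE 0.11 on the log2 scale, adjusted p = 0.046). In both genes the groups overlapped: 2 knockout hearts were above the lowest WT ZT0 heart in Myl1, and 3 were below the highest WT ZT0 heart in Gpr22. A fit on the arrays of these 2 groups alone ended both calls (adjusted p = 0.106 and 0.12), and quantile normalizing again ended that of Gpr22 (0.0624). Leaving out hearts in turn ended the call of Myl1 without WT ZT0 replicate 1, 2, 3 or 5 or KO ZT12 replicate 2, 4 or 5 (adjusted p up to 0.13), and that of Gpr22 in 9 of 12 cases (up to 0.15), the exceptions being WT ZT0 replicate 7 and KO ZT12 replicates 1 and 3. The largest differences were not called: -4.58 for Bmp10 (SE 1.45, adjusted p = 0.144), -3.03 for Sln (SE 1.01, adjusted p = 0.17), -2.66 for Hamp (SE 0.96, adjusted p = 0.219), -2.57 for Myl7 (SE 0.84, adjusted p = 0.162) and -1.11 for Myl4 (SE 0.41, adjusted p = 0.228). Without WT ZT0 replicate 1, the low heart of its group, Bmp10 was called (-5.45, adjusted p = 0.0498), and without KO ZT12 replicate 1 Myl7 was called (-3.36, adjusted p = 0.0374). An unadjusted p under 0.05 was found for 7 of the 9 members and 12.6% of all genes. The members vary together over the same hearts, so the 7 are not separate results to set against that share. Fewer atrial cells in a frozen heart and less of these RNAs per cell cannot be told apart in whole-heart RNA, and the labels do not say how the atria were handled.

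**Figure D5:**
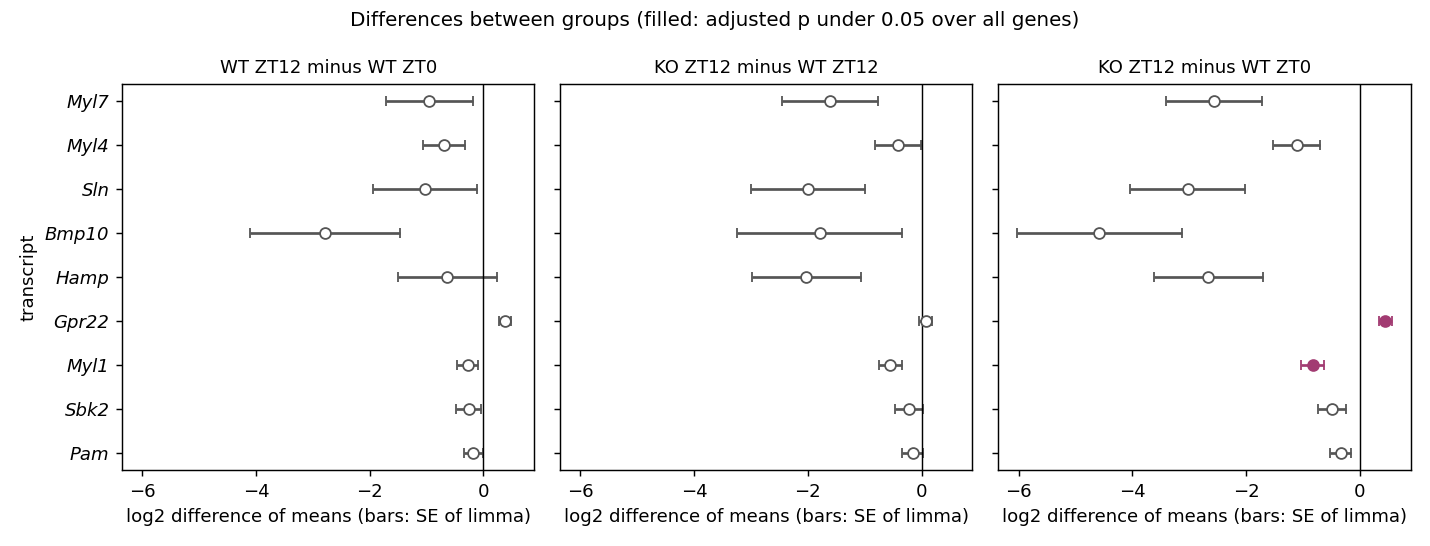
Log2 difference of group means for each transcript in the 3 comparisons, with bars for the SE of limma; filled points have an adjusted p under 0.05 over all genes. Only Gpr22 and Myl1 in KO ZT12 minus WT ZT0 are filled, and Bmp10 has the widest bars (SE 1.32 to 1.45).

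The genotype check rests on clock genes. The probe set of Nr1d1 was at 6.15, 6.74 and 6.38 (means of WT ZT0, WT ZT12 and KO ZT12) and was not called between knockout and wild type at ZT12 (difference -0.35, adjusted p = 0.374). Which part of the gene was removed is not given in the sources used here, so this probe set checks nothing. Arntl, a clock gene that Rev-erb alpha represses, was 5.48-fold higher in knockout than in wild-type hearts at ZT12 (adjusted p = 1.24e-12). Over the hearts, r between Nr1d1 and Myl7 was -0.10. For the 8 members other than Gpr22, r with the array median was -0.02 to 0.13. Their r with the mean correlation of an array to the others was 0.20 to 0.46, highest for Myl1 (0.46), Myl4 (0.34) and Sln (0.33). For Gpr22 these values were -0.53 and -0.42. The part of array quality in the levels of the members was not tested.

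The 8 genes outside the list that were most like Myl7 over the 19 hearts included 4 from a list of other atrial genes (Mybphl, Nppa, Stard10 and Sbk3). Mybphl, a myosin-binding protein of atria, had r of 0.99 and a 36.1-fold range over hearts. Nppa, which encodes atrial natriuretic peptide, had 0.98 over a 3.52-fold range (10.99 to 12.80), and Fgf12, a modulator of sodium channels, had 0.98 over a 16.4-fold range. Tmem163 (0.97), Stard10 (0.96), the kinase Sbk3 (0.96), Tbc1d1 (0.94) and the relaxin receptor Rxfp1 (0.94) came next. Within the 15 hearts above the gap of Myl7 these 8 genes still had r of 0.67 to 0.92. Of all genes, 0.176% had r above 0.8 with Myl7, and 3.13% above 0.5. At the other end were Scfd2 (-0.80), Ifrd2 (-0.79) and Cubn (-0.79), each with a range under 2-fold.

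The 8 genes most like Bmp10 were others. Cacna2d2, an auxiliary subunit of calcium channels, had r of 0.98 and ran from 3.65 to 5.47. The B cell attractant Cxcl13 had 0.91 over a 37.6-fold range, and Vsig4, a complement receptor of macrophages, had 0.90. Cacna1d, the pore of a calcium channel known from the sinoatrial node and atria, had 0.88, followed by the protease gene Mmp19 (0.87), the calcium release channel Ryr3 (0.87), Olfml2b (0.86) and Rgs6 (0.86), a regulator of vagal signalling in the node. With Myl7 these 8 genes had only 0.43 to 0.67. Within the 10 hearts high in Bmp10 the values ranged widely, from -0.14 for Rgs6 and -0.03 for Mmp19 to 0.80 for Vsig4 and 0.87 for Ryr3. Of all genes, 0.0947% had r above 0.8 with Bmp10, and 3.25% above 0.5.

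Of 20 other genes known from atrial muscle, 18 were measured. Of these 12 had r above 0.5 with Myl7 and 10 with Bmp10. The 4 with the largest SD within groups were Mybphl (1.35), Dkk3 (0.95), Sbk3 (0.82) and Stard10 (0.61), and Dkk3 was unlike the rest in an r of 0.84 with Bmp10 as well as 0.93 with Myl7. The acetylcholine-gated potassium channel subunits differed, with r of 0.90 with Myl7 for Kcnj3 and 0.57 for Kcnj5. The potassium channel gene Kcna5 had -0.55. Limma called none of the 18 between the wild-type groups or between genotypes at ZT12, with an unadjusted p under 0.05 for 2 and 3 of them. In KO ZT12 against WT ZT0, 1 rose and 17 did not pass, with an unadjusted p under 0.05 for 9 of the 18 (12.6% of all genes). The gene that rose was Chrm2, the muscarinic receptor of heart muscle (difference 0.40, adjusted p = 0.00779), whose r with Myl7 was -0.30. The differences of Nppa in the same comparison (-0.86, adjusted p = 0.15) and of Mybphl (-2.33, adjusted p = 0.113) did not pass, though Nppa was called without KO ZT12 replicate 1 (adjusted p = 0.0468), Mybphl without KO ZT12 replicate 1 or 3 (0.0304 and 0.0358), and both by robust regression (3.86e-05 and 0.000144).

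Muscle genes that atria and ventricles share, or that ventricles favour, did not as lists rise with the members over the 19 hearts. The mean of the ventricular list had r of -0.59 with Myl7 and -0.14 with Bmp10, and that of the cardiomyocyte list -0.54 and -0.69. The lowest single values were those of Pln with Myl7 (-0.62) and of Mybpc3 with Bmp10 (-0.75). Within the 15 hearts above the gap of Myl7, Pln had -0.04 with Myl7. There the ventricular genes ran from -0.40 (Myl3) to 0.61 (Kcnj2), and the cardiomyocyte genes from -0.56 (Actn2) to 0.37 (Ryr2). Over all 19 hearts, no gene of 8 ventricular markers and none of 9 general cardiomyocyte genes had r above 0.5 with Myl7. Limma called none of them in any comparison (unadjusted p under 0.05 for 0 to 2 ventricular and 0 to 2 cardiomyocyte genes a comparison). Their list means stayed within 7.11 to 7.38 and 11.32 to 11.42 over the 19 hearts. Among 12 genes of other myosin chains and of the light chain kinase MYLK3, only Myl9, a light chain of smooth muscle, had r above 0.5 (0.80 with Myl7, 0.82 with Bmp10), and limma called none (unadjusted p under 0.05 for 1 or 2 a comparison). Of 10 genes for SERCA, its regulators and proteins of calcium storage and release, 9 were measured, with an unadjusted p under 0.05 for 1, 5 and 3 of them in the 3 comparisons (11.5%, 10.6% and 12.6% of all genes). Casq1, which encodes calsequestrin of skeletal muscle, fell in the knockout against wild types at ZT12 (difference -0.66, adjusted p = 0.0465), and the other 8 did not pass in any comparison. Its call was lost in a fit on the arrays of these 2 groups alone (0.141), with arrays centred on their medians (0.056) and whenever a heart of either group other than WT ZT12 replicate 1 or 5 or KO ZT12 replicate 1 was left out (up to 0.142).

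For the BMP10 pathway, 12 receptors, relatives and targets were measured and limma called 0 in each of the 3 comparisons (unadjusted p under 0.05 for 1 to 3). The mean of the 12 had r of 0.78 with Bmp10. Single genes had a median r of 0.18 with Bmp10, and 4 of the 12 were above 0.5, beside 3.25% of all genes. The others ran from -0.27 (Bmpr2) to 0.38 (Smad7), with Id1 at -0.25, Acvrl1 at -0.20 and Tmem100 at -0.02. The 4 above 0.5 were the transcriptional targets Id2 (0.80) and Id3 (0.78), the inhibitor Smad6 (0.78) and the co-receptor Eng (0.78). Their ranges were small, 1.60-fold for Smad6 to 2.19-fold for Id2, beside 199-fold for Bmp10. Within the 10 hearts high in Bmp10 the r values of the 4 genes were -0.32 to 0.43. Of 14 genes of iron handling, the field of hepcidin, 12 were measured and none had r above 0.5 with Bmp10 or Myl7. Hfe, an upstream regulator of hepcidin, rose in KO ZT12 against WT ZT0 (difference 0.51, adjusted p = 0.00933), and 11 genes did not pass, where limma called 1.34% of all genes. The call of Hfe was lost with the replicate number as a block. An unadjusted p under 0.05 was found for 1, 3 and 1 of the 12 in the 3 comparisons. Of 12 genes of peptide granules, Nppa had r above 0.5 with Myl7, and limma called 0 (unadjusted p under 0.05 for 0 to 2 a comparison).

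Markers of other tissues moved with the members in part. Of 8 mesothelial markers 5 had r above 0.5 with Myl7, led by Upk3b (0.77), Upk1b (0.73) and Wt1 (0.70). The list mean had 0.82 and lay within 4.02 to 4.54 in WT ZT0, 3.86 to 4.35 in WT ZT12 and 3.71 to 4.40 in KO ZT12. Of 7 measured adipocyte genes 4 had r above 0.5 with Myl7, and Ucp1, the uncoupling protein of brown fat, ranged 49.7-fold with r of 0.52. After each gene was centred on its group means, all 7 had r above 0.5 with Myl7, from 0.54 (Plin1) to 0.75 (Fabp4). The adipocyte list mean lay within 4.56 to 5.93, 4.34 to 6.61 and 4.42 to 6.80 in the same groups. Of 8 endothelial and endocardial markers 3 had r above 0.5 with Myl7, of which Npr3, a marker of endocardium, was highest (0.76). In this list Kdr fell between the wild-type groups (difference -0.52, adjusted p = 0.0016). Of 8 smooth muscle markers Acta2 (0.60) and Cnn1 (0.59) had r above 0.5, and Eln fell between the wild-type groups (difference -0.66, adjusted p = 0.0481). The call of Eln held only when the heart left out was WT ZT12 replicate 1 (up to 0.106 otherwise). Lrrn4, of the mesothelial list, fell in the knockout at ZT12 (difference -0.53, adjusted p = 0.0359), and its call held only when the heart left out was WT ZT12 replicate 3 or 5 or KO ZT12 replicate 1 or 3 (up to 0.11 otherwise). Of 11 measured nodal and conduction genes 3 had r above 0.5 with Bmp10, namely Cacna2d2, Cntn2 (0.72) and Vsnl1 (0.67), and limma called none (unadjusted p under 0.05 for 1 to 3 a comparison). The part of these other cells in the levels of the members was not tested.

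Hamp and Myl1 have products best known from liver and skeletal muscle. For markers of those tissues r was taken with Myl7 and Bmp10, not with Hamp or Myl1 themselves. In the liver list 3 of 8 markers had r above 0.5 with Myl7 (Ahsg 0.67, Cyp2e1 0.66 and Tat 0.52) and 2 with Bmp10 (0.58 for Ahsg and 0.53 for Cyp2e1). Alb, of the same list, had means of 2.28, 2.26 and 2.32 in WT ZT0, WT ZT12 and KO ZT12. Its r was -0.04 with Myl7 and -0.30 with Bmp10. In the skeletal muscle list 1 of 10 markers, Casq1, had r above 0.5 with Myl7, and Mylpf, the fast light chain partner of MYL1, had means of 1.98, 2.0 and 1.88, below the array medians. The part of liver or skeletal muscle tissue in the levels of Hamp and Myl1 was not tested. Fibroblast, macrophage, ganglion neuron and lung and thymus lists had 2 of 8, 1 of 6, 0 of 9 and 0 of 9 measured genes with r above 0.5 with Myl7. With Bmp10, 2 of the 6 macrophage genes had r above 0.5, and within the 10 hearts high in Bmp10 the 6 ran from -0.07 (Cd163) to 0.84 (Adgre1). Limma called no gene of these 4 lists. In KO ZT12 against WT ZT0 an unadjusted p under 0.05 was found for 4 of the 6 macrophage genes (lowest adjusted p = 0.0699) and for 12.6% of all genes. Elsewhere it was found for 0 to 2 genes a list and comparison.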

How the data were processed

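RNA of 19 mouse hearts was measured on Affymetrix arrays, from 300 ng of RNA per heart. The deposited log2 values summarise probe sets by RMA, run by the authors per the submitters' processing notes; its version is not given in the sources used here. The log2 scale was read from the values (0.21 to 12.88). Of 41345 probe sets, 23521 name 1 gene on the platform annotation, and 22180 genes were tested, each by its probe set with the highest mean. The comparisons used limma 3.58.1 (R 4.3.3), with a mean per group over all 19 arrays and eBayes without trend. Tests were two-sided, with Benjamini-Hochberg adjustment over all genes. The fit was tested on simulated data. Arrays hold no read depth, so their number limits the precision. Correlations are Pearson's r. Labels call the replicates biological, so each array was taken as a heart.

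The members and all gene lists were chosen with earlier results of these data known. Genes outside the members were named by rule: the 8 most correlated with Myl7 and with Bmp10, the 3 least with Myl7, called genes or those of largest SD in each list, Nr1d1 and Hamp2; Arntl, Alb, Mylpf and further listed genes were added after their values were seen.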

Additional observations from a re-analysis of the deposited data

Results flagged for a closer look

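Within groups, 84 sets of values (28 genes in 3 groups) were searched for a heart far from the rest, by the gap to the nearest heart over the whole range; 8 stood out. Chance alone gives about 5 percent of sets, but these genes were chosen for, or by likeness to, values that vary from heart to heart, so the count is not read against that rate. Bmp10 was at 3.86 in WT ZT0 replicate 1, with the nearest heart of its group at 9.54, and Hamp at 2.61 in the same heart, with the nearest at 5.74. Cxcl13 was lowest there too, at 4.22 against 6.24. Bmp10 was at 9.01 in KO ZT12 replicate 1, above the 4.15 of the next knockout heart. In WT ZT12 replicate 5, Sln was at 5.09 against 8.48 and Nppa at 11.23 against 12.24, whereas Cubn was highest there, at 4.47 against 3.88. Cubn was also lowest in WT ZT0 replicate 3, at 3.53 against 3.79.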

How the results depend on the processing

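Between the wild-type groups no member was called, but 1 (Gpr22) was with dim probe sets left out, with a variance trend in limma, by robust regression and with array weights, and 0 to 1 with hearts left out in turn; the genes called overall were 250, but 431 without dim probe sets and 716 by robust regression. Between genotypes at ZT12, 3 members were called by robust regression in place of 0 and 0 with any heart left out, and the genes called overall were 162, but 88 with the block, 72 with only the arrays compared, 283 without dim probe sets, 267 with a trend and 611 by robust regression. For KO ZT12 against WT ZT0, 2 members were called, but 0 with the replicate block or only the arrays compared, 1 when quantile normalized again, 6 by robust regression and 0 to 3 with hearts left out; genes overall were 298, but 182 with the block, 187 with only the arrays compared, 528 without dim probe sets and 941 by robust regression. By construction, robust regression gives less weight to values far from the group. The cause of the changed calls was not tested for any setting. The difference of Gpr22 between genotypes at ZT12 turned to -0.003 without KO ZT12 replicate 5 and was up to 0.14 otherwise. The other members kept their direction in all settings run. The median correlation, 0.77, was 0.68 as Spearman's rho, 0.67 without the 2 hearts farthest from the median of Bmp10 and 0.47 without the 4 hearts lowest in Myl7, Myl4 and Sln, and 0.73 to 0.80 with hearts left out in turn. The median SD, 0.79, was 0.68 to 0.81.

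Hearts with the same replicate number did not deviate together (17 pairs, r -0.072 to 0.074), and 0 of 19 arrays correlated best with their own number in another group, so the numbers were not taken to pair hearts. With the replicate number as a block the calls of Myl1, Gpr22 and Hfe in KO ZT12 against WT ZT0 (adjusted p = 0.0572, 0.0733 and 0.0681) and of Casq1 and Lrrn4 between genotypes at ZT12 (0.0612 and 0.173) were lost.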
